A study of Homo sapiens with 12 samples.

Results

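Of the 61782 gene rows in the tables, 693 carried only names of small nucleolar RNAs (SNORD or SNORA) or small Cajal body RNAs (SCARNA), and 23 of these 693 rows had a value above 0 in at least 1 of the 4 groups of precipitates. These 23 stand-alone rows are described here. They were selected on the deposited FPKM itself (fragments per kilobase of transcript, relative to all mapped fragments), since a row needed a value above 0. The lowest row that qualified was SNORD3B-2, with a highest value of 1.47 FPKM, followed by SCARNA9 with 4.67 FPKM, and the 670 rows outside were at 0 in every group. A further 39 rows joined a snoRNA or scaRNA with another gene, and they were left out because their value cannot be divided between the names.

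The cells were K562, a human erythroleukemia line, and per the methods a K562 derivative with an estradiol-inducible C/EBPα (K562-C/EBPα-ER). The cells were infected with a lentiviral vector with a red fluorescent reporter and selected with puromycin. The vector was either pLV-miR-143, which overexpresses this microRNA, or the unspecific pLV-control. Each population was precipitated with an antibody against argonaute 2 (AGO2), the protein that carries microRNAs to their targets, or with unspecific immunoglobulin as a mock precipitate. This gave the groups control_IgG, control_AGO, miR143_IgG and miR143_AGO, with 3 samples each by the labels. The deposited tables hold 1 average value per row and group. There was thus no replicate error, no test could be made, and every difference below is a ratio of the authors' averages. The sources describe selection of the transduced cells and no single clone, and they do not state whether estradiol was added before precipitation. In bulk material of this kind, fewer cells with an RNA and less of it per cell cannot be told apart.

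Small nucleolar RNAs guide chemical modification of other RNAs by base pairing. C/D box RNAs (SNORD) direct 2′-O-methylation by fibrillarin, H/ACA box RNAs (SNORA) direct pseudouridylation by dyskerin, and the scaRNAs (SCARNA) carry C/D, H/ACA or both kinds of domain and act on spliceosomal RNAs in Cajal bodies. Some of them, U3 and U17 above all, instead take part in cutting the ribosomal RNA precursor. In human cells most are processed from introns of host genes and remain in the nucleus, whereas AGO2 acts mainly in the cytoplasm.

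Which rows were above 0 went with gene length. The labels describe removal of ribosomal RNA, random priming and paired reads of 100 bases each. Of 218 rows whose name occurs once and has a length in GENCODE release 29, all 148 of at most 100 bases were at 0, as were all 16 of 101 to 130 bases. Above 0 were 6 of 39 rows of 131 to 200 bases and 11 of 15 longer rows. The boundary was not particular to snoRNAs, since among rows of any gene type none of 1916 with at most 100 bases had a value above 0. The classes differ in length, and their listing differed as well, with 4 of 284 SNORD rows (1.41%), 12 of 362 SNORA rows (3.31%) and 7 of 47 SCARNA rows (14.9%) above 0. A value of 0 in a short row is therefore not read below as absence of the RNA. The 4 long rows that stayed at 0 were SNORD3B-1, SNORD3C, SNORA59B and SNORD91B.

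**Figure D1:**
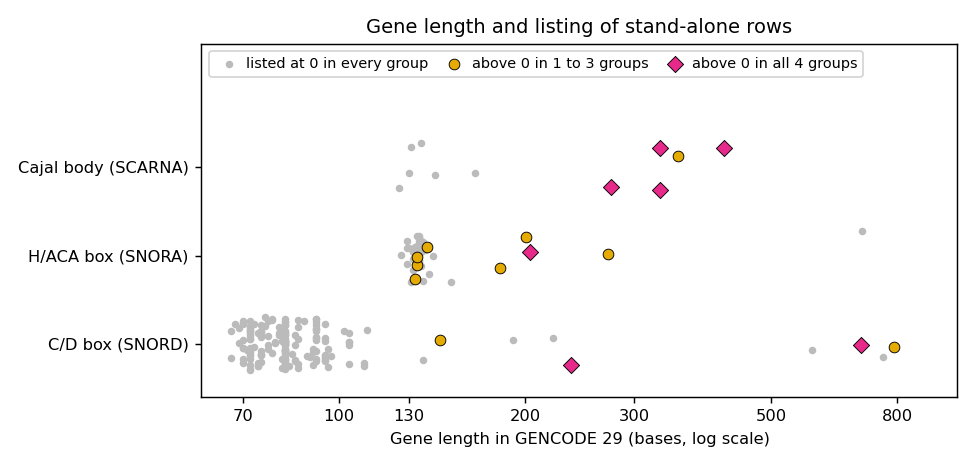
Gene length in GENCODE 29 (bases, log scale) of the 218 stand-alone rows whose name occurs once, by class, with the vertical position within a class spread at random. Grey points were at 0 in every group, yellow circles above 0 in 1 to 3 groups and pink diamonds above 0 in all 4 groups. All 7 diamonds lie above 200 bases.

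Length also separated the members among themselves. The 13 members longer than 200 bases included all 7 that were above 0 in all 4 groups, namely SNORD17, SNORD3A, SNORA73B, SCARNA2, SCARNA7, SCARNA10 and SCARNA13. None of the 8 members of at most 200 bases was above 0 in all groups, and 7 of them appeared in a single group. When such a short member was listed, its value was high, from 41.2 to 4727 FPKM with a median of 207. The longer members ranged from 0.516 to 3024 FPKM, with a median of 38.0 over their values above 0. The remaining members, SNORA74 and SNORA76A, had no unique gene in the annotation. In all, 13 of the 23 members were above 0 in only 1 group, which was enough for membership. The share of all rows above 0 in only 1 group was not counted, so this is not read as a trait of snoRNAs. By group, 8, 13, 15 and 12 members were above 0 in control_IgG, control_AGO, miR143_IgG and miR143_AGO. Of all 61782 rows, 8393, 12161, 11453 and 12937 were above 0 in the same order, so control_IgG had the fewest in both counts.

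**Figure D2:**
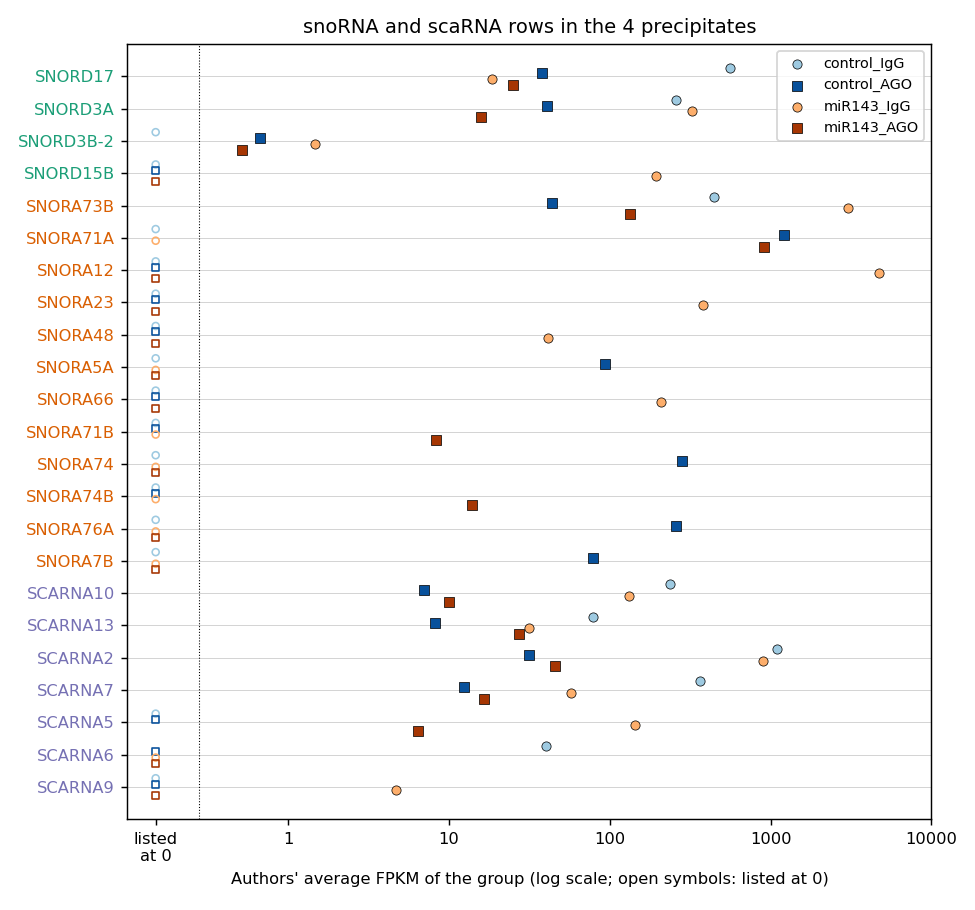
Authors' average FPKM (log scale) of the 23 members in control_IgG (light blue circles), control_AGO (dark blue squares), miR143_IgG (light orange circles) and miR143_AGO (dark orange squares). Open symbols left of the dotted line are values of 0, and the names are coloured by class. SNORA71A is the only member above 0 in both AGO groups and at 0 in both IgG groups.

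The groups differed in composition and in their lowest values, in ways that touch all these values. The numbers of fragments are unknown, so a difference in depth could not be measured. The low edge of FPKM times length (the 10th lowest value over rows of a single transcript) was lowest in miR143_AGO, and it stood 1.09 times above that group in control_AGO, 1.64 times in miR143_IgG and 13.5 times in control_IgG. Over these rows of all lengths, a value of 0 in control_IgG thus leaves room for more RNA than elsewhere. A set of 9 structural and mitochondrial RNA rows made up 81.5% of the summed FPKM in control_IgG, 82.4% in miR143_IgG, 40.9% in control_AGO and 19.1% in miR143_AGO. The erythroid transcription factors GATA1, TAL1 and KLF1, markers of K562, were above 0 in all groups, and among 8 markers of lymphocytes, monocytes and epithelium the highest value was 8.28 FPKM and 4 (CD3E, MS4A1, CD14 and CDH1) were at 0 in all groups. How far depth and composition contribute to the ratios below was not tested.

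The sequences of 4 of the 7 members above 0 in every group are shown, those of the C/D and H/ACA classes and 1 scaRNA, because their ratios between precipitates rest on values above 0. The other 3, SCARNA2, SCARNA7 and SCARNA10, are transcripts of over 300 bases. They are the shortest GENCODE 29 transcript of each gene (genome build hg38), 5′ to 3′, with the C box (TGATGA), the D box (CTGA) or the ACA trinucleotide near the 3′ end in capitals where it was found in the windows searched.
SNORD17: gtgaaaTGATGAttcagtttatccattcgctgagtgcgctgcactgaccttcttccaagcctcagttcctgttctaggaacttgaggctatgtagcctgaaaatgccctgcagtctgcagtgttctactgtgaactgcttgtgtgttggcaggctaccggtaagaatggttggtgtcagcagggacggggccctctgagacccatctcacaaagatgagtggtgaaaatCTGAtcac
SNORD3A: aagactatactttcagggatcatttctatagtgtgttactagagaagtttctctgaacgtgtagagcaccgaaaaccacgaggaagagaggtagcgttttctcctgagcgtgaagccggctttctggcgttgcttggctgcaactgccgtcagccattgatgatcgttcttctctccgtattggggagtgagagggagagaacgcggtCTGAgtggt
SNORA73B: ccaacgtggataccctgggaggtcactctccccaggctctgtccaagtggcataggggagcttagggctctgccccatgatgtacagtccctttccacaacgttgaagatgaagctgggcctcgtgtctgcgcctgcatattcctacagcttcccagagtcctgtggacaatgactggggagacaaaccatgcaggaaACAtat
SCARNA13: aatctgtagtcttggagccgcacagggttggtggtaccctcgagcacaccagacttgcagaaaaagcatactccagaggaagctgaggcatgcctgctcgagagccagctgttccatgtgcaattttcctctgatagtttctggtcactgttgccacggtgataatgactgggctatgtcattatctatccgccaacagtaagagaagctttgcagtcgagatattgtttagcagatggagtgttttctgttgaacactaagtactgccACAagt

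The boxes mostly went with the class names. TGATGA was searched in the first 25 bases, CTGA in the last 25 and ACA in the last 8, on the RNA strand only. The ACA was found in all 10 SNORA members with a sequence, against 89.9% of 149 annotated SNORA transcripts and 4.94% of 4127 small nuclear and other small RNA transcripts. CTGA was found in all 4 SNORD members, against 94.4% of 288 annotated SNORD transcripts, and TGATGA in 2 of the 4, against 67.0%. Of the 7 SCARNA members, 6 had the CTGA and 4 the TGATGA, whereas SCARNA13 alone had the ACA, as its capitals show. The first 40 bases of the 330-base transcripts SCARNA10 and SCARNA7 are printed to show the C box they share at base 7.
SCARNA10: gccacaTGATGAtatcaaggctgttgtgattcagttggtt
SCARNA7: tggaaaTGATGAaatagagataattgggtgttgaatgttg

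The first question of the design is which RNAs were more abundant in the AGO2 precipitate than in the mock precipitate of the same cells. In control cells, on the deposited scale, all 7 members that were above 0 in both precipitates were lower with AGO2 (SNORD3A turned under 1 of 3 rescalings, given below), by 6.33 times (SNORD3A) to 34.6 times (SCARNA2). In miR-143 cells, 8 of the 9 members above 0 in both precipitates were lower with AGO2, and SNORD17 was higher. Ratios are given as log2 of (AGO + 1) over (IgG + 1), which damps low values. The median of all rows of at least 1 FPKM in either precipitate was -0.19 on this scale for control cells and -0.22 for miR-143 cells, and it rose by up to 2.19 and 2.37 when the groups were rescaled to the same sum without the mitochondrial ribosomal RNA rows and MIR143. As deposited, the sums of all rows were 2.83e+06 FPKM (control_IgG), 368552 (control_AGO), 2.60e+06 (miR143_IgG) and 411417 (miR143_AGO). The mitochondrial ribosomal RNA rows held 11.3%, 4.13%, 8.82% and 1.72% of these. MIR143 held 1.73% in miR143_IgG and 28.8% in miR143_AGO. Under that rescaling SNORD3A turned higher with AGO2 in control cells (log2 of 0.17), as did SCARNA7 (1.19), SCARNA13 (2.75) and SNORD3B-2 (0.89) in miR-143 cells. Under each scaling, all 7 members lay below the median of all rows in control cells and 7 of 9 did so in miR-143 cells.

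SCARNA2 is a long C/D-type guide of U2 small nuclear RNA (chr1:109100193-109100612, plus strand, annotated in an exon of the long noncoding RNA AL356488.2). Its FPKM was 1094 (control_IgG), 31.6 (control_AGO), 896 (miR143_IgG) and 45.4 (miR143_AGO). Both IgG values were thus far above both AGO values. The mock precipitate exceeded AGO2 by 34.6 times in control cells and the miR-143 cells had a ratio of 19.7 times. Only 0.155% of the 5823 rows of at least 1 FPKM in both control precipitates had a lower log2 ratio, and 0.433% of 6924 rows in miR-143 cells.

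SCARNA10 (chr12:6510222-6510551, plus strand, in an intron of NCAPD2) carries both domain types and guides U5 modification. It had 236 FPKM (control_IgG), 6.99 (control_AGO), 131 (miR143_IgG) and 10.0 (miR143_AGO). The difference was 33.7 times in control cells, against 13.1 times in miR-143 cells, and again the precipitates did not overlap. SCARNA7 (chr3:160514907-160515236, minus strand, in an intron of KPNA4) had 366 FPKM (control_IgG), 12.5 (control_AGO), 57.5 (miR143_IgG) and 16.4 (miR143_AGO). Its AGO values were close to each other, and the difference between precipitates fell from 29.4 times in control cells to 3.51 times in miR-143 cells because the 2 IgG values differed.

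SCARNA13 (chr14:95533355-95533629, minus strand, in an intron of the noncoding host SNHG10) is the H/ACA-type guide printed above. It had 78.8 FPKM (control_IgG), 8.15 (control_AGO), 31.3 (miR143_IgG) and 27.1 (miR143_AGO). The AGO2 precipitate of control cells stood 9.66 times below its mock, whereas the precipitates of miR-143 cells were nearly level at 1.15 times. Of all rows of at least 1 FPKM in both precipitates, 4.59% had a lower log2 ratio in control cells, against 51.7% in miR-143 cells.

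SNORD17 (chr20:17962710-17962946, minus strand, in an intron of SNX5) is a long C/D box RNA assigned to 28S ribosomal RNA. Its values were 563 FPKM (control_IgG), 38.0 (control_AGO), 18.6 (miR143_IgG) and 25.1 (miR143_AGO). The single high value was the mock precipitate of control cells, and the other 3 lay within a narrow range. The log2 ratio of AGO over IgG was accordingly -3.85 for control cells and 0.42 for miR-143 cells. The row that holds its host (SNX5 joined with OVOL2) had 27.1, 44.9, 34.5 and 17.8 FPKM in the same order of groups and did not follow the high mock value. No member held a match to the whole miR-143-3p seed, bases 2 to 8 (TCATCTC, on the RNA strand). The shorter match to bases 2 to 7 followed by an A (CATCTCA) was found once in SNORD17 and in SNORA48 and in none of the other 19 member sequences, where 1.04% of annotated SNORD transcripts and 2.01% of SNORA transcripts held it. A match is a description of the letters only, and the AGO2 precipitate of miR-143 cells held less SNORD17 (25.1 FPKM) than that of control cells (38.0). The mature microRNA (RefSeq) is printed with its seed, bases 2 to 8, in capitals, of which the last is not matched in SNORD17.
hsa-miR-143-3p: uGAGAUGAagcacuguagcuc

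U3 and U17, the RNAs of ribosomal RNA precursor cleavage, were the other C/D and H/ACA members present throughout. SNORD3A, a U3 gene (chr17:19188016-19188714, plus strand, an independent gene without a host), had 258 FPKM (control_IgG), 40.8 (control_AGO), 326 (miR143_IgG) and 15.8 (miR143_AGO). The mock precipitates were similar and both above the AGO2 precipitates, by 6.33 times in control cells, against 20.7 times in miR-143 cells. The U3 copies are nearly identical, with 99.5% identity of the short transcripts of SNORD3A and SNORD3B-2, so the division of reads between them is uncertain. SNORD3B-2 had 0, 0.672, 1.47 and 0.516 FPKM in the order control_IgG, control_AGO, miR143_IgG and miR143_AGO, and the copies SNORD3B-1 and SNORD3C were at 0.

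SNORA73B (U17b, chr1:28508559-28508762, plus strand, in introns of SNHG3 and RCC1) had 445 FPKM (control_IgG), 43.8 (control_AGO), 3024 (miR143_IgG) and 133 (miR143_AGO). The mock precipitate exceeded AGO2 by 10.1 times in control cells, against 22.7 times in miR-143 cells. The joined row of its hosts RCC1 and SNHG3 had 107, 34.0, 91.4 and 33.3 FPKM and lacked the high value in miR143_IgG. SNORA73B shares 93.2% of its bases with SNORA73A, which has no stand-alone row, so reads of this copy could have been counted in it. Of the 13 names on the list of RNAs for precursor cleavage, 7 had a stand-alone row, and the 3 above 0 were SNORD3A, SNORD3B-2 and SNORA73B.

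**Figure D3:**
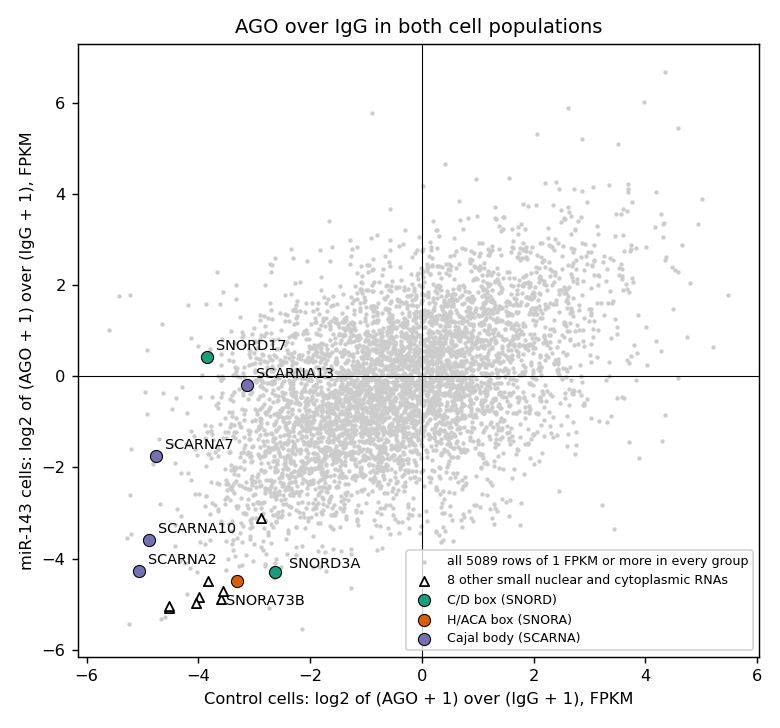
log2 of (AGO + 1) over (IgG + 1) FPKM in control cells (horizontal axis) and miR-143 cells (vertical axis) for the 5089 rows of at least 1 FPKM in every group (grey), for the 7 members among them (coloured by class) and for 8 other small nuclear and cytoplasmic RNAs (triangles). On the deposited scale all 7 members lie left of 0 and only SNORD17 lies above 0 on the vertical axis, whereas the rescaling without mitochondrial ribosomal RNA rows and MIR143 moved SNORD3A right of 0 and SCARNA7 and SCARNA13 above 0.

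The members low with AGO2 lay near other structured RNAs that are not guides. Of 8 such RNAs (RNU4-1, RNU4-2, RN7SK, RN7SL1, RN7SL2, RMRP, RPPH1 and TERC), 7 were at least 10-fold lower with AGO2 in each cell population. The shares of all rows compared were 4.98% (control cells) and 3.67% (miR-143 cells). TERC was the exception in both, with log2 ratios of -2.88 and -3.10. The median log2 ratios of the 8 were -3.91 (control cells) and -4.86 (miR-143 cells). All but TERC belong to the set of 9 abundant rows above, so their low ratios are not independent of that choice. The protein genes of the snoRNA particles moved less. Of 16 rows for them, 13 reached 1 FPKM in either precipitate of control cells, with a median log2 ratio of -1.41. In miR-143 cells 15 did so, with a median of -1.74. With 1 added to both values, only the row of NOP58, a core C/D protein, was at least 10-fold lower in miR-143 cells, beside 3.67% of all rows. None was at least 10-fold higher. As plain ratios of low values, GAR1 was 14.8 times lower with AGO2 in miR-143 cells (7.71 against 0.522 FPKM). In control cells WRAP53 was 17.4 times lower (3.73 against 0.215 FPKM) and COIL 12.4 times (3.33 against 0.269 FPKM). The row of NOP58 is joined with SNORD70, as NOP56 is with SNORA51 and DKC1 with SNORA36A. The values of these joined rows cannot be divided between the names. Fibrillarin (FBL), the C/D methyltransferase, had 67.2 FPKM (control_IgG), 28.7 (control_AGO), 120 (miR143_IgG) and 24.2 (miR143_AGO).

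SNORA71A was the only member listed in both AGO2 precipitates and in neither mock precipitate. This H/ACA RNA of 134 bases (chr20:38427309-38427442, minus strand, in an intron of the noncoding host SNHG17) had 1215 FPKM in control_AGO and 909 in miR143_AGO and was listed at 0 in control_IgG and in miR143_IgG. It was the highest member in both AGO groups, and no fold can be given against a group at 0. Its host SNHG17 went the other way, with 43.7, 13.3, 44.5 and 18.0 FPKM in control_IgG, control_AGO, miR143_IgG and miR143_AGO. SNORA71B, from the same host, was listed in miR143_AGO alone at 8.27 FPKM. The short transcripts of both RNAs are shown because they share 83.1% of their bases and differ in their listing.
SNORA71A: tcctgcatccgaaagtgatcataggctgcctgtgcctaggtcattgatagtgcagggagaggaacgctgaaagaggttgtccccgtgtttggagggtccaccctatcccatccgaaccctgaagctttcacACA
SNORA71B: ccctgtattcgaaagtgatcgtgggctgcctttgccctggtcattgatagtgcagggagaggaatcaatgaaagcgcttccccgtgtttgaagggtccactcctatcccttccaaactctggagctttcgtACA

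Counted against all rows, the 10-fold calls were as follows. In control cells, 13 of the 23 members reached 1 FPKM in either precipitate, of which 5 were at least 10-fold higher with AGO2 and 5 at least 10-fold lower, beside 4.38% and 4.98% of all 9919 rows compared. All 5 higher members (SNORA71A, SNORA74, SNORA76A, SNORA5A and SNORA7B) were at 0 in control_IgG, the group with the highest low edge. FPKM times length in kilobases in control_AGO was 163 for SNORA71A, 12.5 for SNORA5A and 11.0 for SNORA7B, against a control_IgG edge of 0.736. That edge was taken over rows of all lengths and does not give the limit for short rows. Among rows of 101 to 150 bases of any gene type, the lowest value above 0 was 30.9 FPKM in control_IgG and 78.9 in control_AGO. What share detection has in these values of 0 was not tested. SNORA74 and SNORA76A have no length. Of the 5 lower ones, SCARNA6 was at 0 in control_AGO, and SCARNA2, SCARNA10, SCARNA7 and SNORD17 were above 0 in both. SNORA73B, with a plain ratio of 10.1, did not reach 10-fold after 1 was added to both values. In miR-143 cells, 18 members were compared, of which 2 were at least 10-fold higher and 10 at least 10-fold lower, beside 1.6% and 3.67% of all 10643 rows. The 2 higher members (SNORA71A and SNORA74B) were at 0 in miR143_IgG. Among the 10 lower ones, 5 were at 0 in miR143_AGO and the others were SNORA73B, SNORD3A, SCARNA5, SCARNA2 and SCARNA10. After the rescaling without the mitochondrial ribosomal RNA rows and MIR143, the calls were 5 higher and 1 lower in control cells, and 4 higher and 5 lower in miR-143 cells. A row that passed only through the group where it was high had to differ in these counts, so they describe the listing and are not evidence about the class.

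By class, the 3 families differed in what made up their total. The summed FPKM of SCARNA was 1815 (control_IgG), 59.2 (control_AGO), 1264 (miR143_IgG) and 105 (miR143_AGO), or 0.0641%, 0.0161%, 0.0487% and 0.0256% of all FPKM of the group. SCARNA2 made up most of it in the IgG groups. SNORD summed to 821, 79.5, 539 and 41.4 FPKM in the same order, or 0.0290%, 0.0216%, 0.0208% and 0.0101%. Both of these classes thus had a higher summed FPKM in each mock precipitate than in either AGO2 precipitate. The summed FPKM of all rows was higher with IgG as well, at 2.83e+06 (control_IgG) and 2.60e+06 (miR143_IgG) against 368552 (control_AGO) and 411417 (miR143_AGO). By share, SCARNA kept that order, whereas the SNORD share was higher in control_AGO (0.0216%) than in miR143_IgG (0.0208%). SNORA summed to 445, 1970, 8380 and 1064 FPKM, or 0.0157%, 0.535%, 0.323% and 0.259%, with no common order of the precipitates, and 10 of its 12 members were above 0 in a single group. Without the highest member, the SNORA share was 0 (control_IgG), 0.205% (control_AGO), 0.141% (miR143_IgG) and 0.0378% (miR143_AGO).

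**Figure D4:**
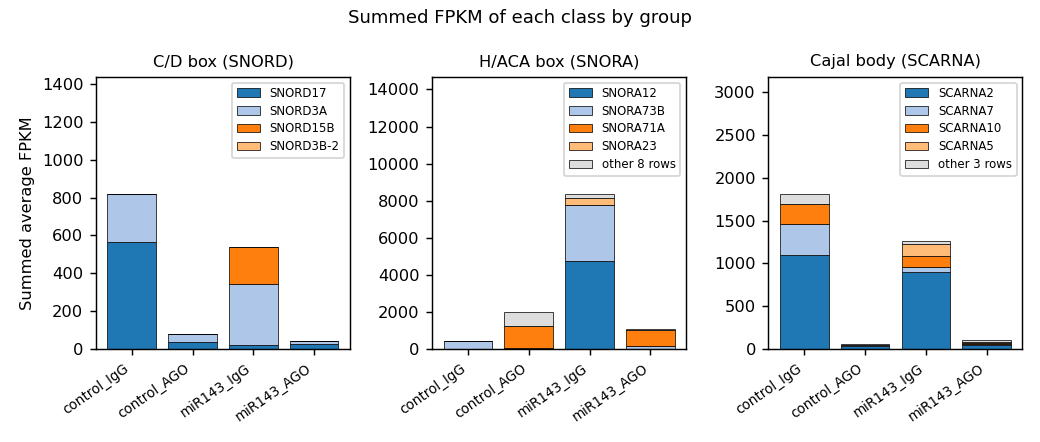
Summed average FPKM of the 4 SNORD, 12 SNORA and 7 SCARNA members in each group, stacked by the 4 members of each class with the highest single value and the rest, with a separate vertical scale for each class. SCARNA2 is the largest part of the SCARNA bars of both IgG groups, at 1094 and 896 FPKM, and different SNORA rows fill the SNORA bars of different groups.

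The second question is what differed between cells with miR-143 and control cells in the same kind of precipitate. These comparisons use the same 4 values per row as those above and are not independent of them. In the AGO2 precipitates, 15 members reached 1 FPKM in either group, of which 1 was at least 10-fold higher in miR-143 cells (SNORA74B, at 0 in control_AGO) and 4 were at least 10-fold lower (SNORA5A, SNORA7B, SNORA74 and SNORA76A, all at 0 in miR143_AGO), beside 0.286% and 0.745% of all 9798 rows. After either rescaling without abundant rows, 3 were higher and 4 lower. None of the 9 members above 0 in both AGO2 precipitates differed by 10-fold. They ranged from 3.33 times higher in miR-143 cells (SCARNA13, 27.1 against 8.15 FPKM) and 3.04 times higher (SNORA73B, 133 against 43.8) to 2.59 times lower (SNORD3A, 15.8 against 40.8). The 4 scaRNAs present in all groups were all higher in miR143_AGO than in control_AGO, by 1.32 times (SCARNA7), 1.43 times (SCARNA10 and SCARNA2) and 3.33 times (SCARNA13), and the direction was the same under each scaling tried. The median log2 ratio of all rows in this comparison was also above 0, at 0.17, and of the 7311 rows of at least 1 FPKM in both AGO2 precipitates 63.9% had a lower ratio than SCARNA7, 68.8% than SCARNA10, 70.9% than SCARNA2 and 97.9% than SCARNA13. Both U3 rows, SNORD17 and SNORA71A were lower, by 1.30 to 2.59 times. The averages carry no error, so ratios of this size cannot be set against replicate spread.

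In the IgG precipitates, 16 members were compared, of which 6 were at least 10-fold higher in miR-143 cells and 2 at least 10-fold lower, beside 5.71% and 3.16% of all 10172 rows. The 6 higher members (SNORA12, SNORA23, SNORA66, SNORD15B, SCARNA5 and SNORA48) were at 0 in control_IgG, where the low edge was 8.20 times that of miR143_IgG. Their FPKM times length in kilobases in miR143_IgG ran from 5.56 (SNORA48) to 695 (SNORA12), against a control_IgG edge of 0.736. That edge was taken over rows of all lengths and does not give the limit for short rows. What share the edge has in these values of 0 was not tested. SNORD17 was 30.3 times lower in miR143_IgG, which only 0.133% of 6028 rows undercut on the log2 scale, and SCARNA6 was at 0 there. SNORA73B was 6.80 times higher and SCARNA7 was 6.36 times lower. The remaining members above 0 in both differed by 1.22 times (SCARNA2), which turned from lower to higher when the abundant structural rows were left out of the scaling, to 2.52 times (SCARNA13).

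The mock precipitate of miR-143 cells held the largest number of members seen in a single group. SNORA12 had 4727 FPKM there, the highest value of any member, and was at 0 in the other 3 groups. The name occurs in 3 rows of the tables, of which the annotation has a main copy in an intron of CWF19L1 (chr10:100237156-100237302, minus strand). That host was low, at 11.6, 3.94, 8.26 and 8.12 FPKM in control_IgG, control_AGO, miR143_IgG and miR143_AGO. SNORA23 from an intron of IPO7 (380 FPKM), SNORA66 from RPL5 (207), SNORD15B from RPS3 (193), SNORA48 (41.2, a name with 19 rows) and SCARNA9 from CEP295 (4.67) were also above 0 in miR143_IgG alone. The hosts RPS3 and RPL5, ribosomal protein genes, had similar values in both mock precipitates. RPS3, in a row joined with SNORD15A, had 1778 FPKM in control_IgG and 1803 in miR143_IgG, and RPL5 had 296 and 238.

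Mixed-domain scaRNAs and the closely spaced pair SCARNA5 and SCARNA6 showed how sparse the listing was. SCARNA5 (chr2:233275727-233276002) and SCARNA6 (chr2:233288676-233288940) lie on the plus strand in introns of the autophagy gene ATG16L1 and share 63.6% of their bases. SCARNA5 had 143 FPKM in miR143_IgG and 6.45 in miR143_AGO and was at 0 in both control groups, whereas SCARNA6 had 40.3 FPKM in control_IgG and was at 0 elsewhere. Their host was lower with IgG than with AGO2 in both cell populations, with 2.80 FPKM (control_IgG), 45.3 (control_AGO), 1.68 (miR143_IgG) and 33.1 (miR143_AGO). SCARNA5 went the other way in miR-143 cells and SCARNA6 in control cells, and in the other population each was at 0. Both names occur in several rows of the tables (2 and 3), and which copy was counted could not be settled. With SCARNA10, these were all 3 of the mixed-domain scaRNAs with a stand-alone row, while SCARNA12 was joined with PHB2.

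Across hosts, the values of the host and of the member did not run together in several pairs. SNHG10 followed SCARNA13 in control cells, with 15.6 FPKM in control_IgG and 0.435 in control_AGO, and had 8.70 in miR143_IgG and 1.59 in miR143_AGO. KPNA4, the host of SCARNA7, had at most 2.17 FPKM in any group. NCAPD2, the host of SCARNA10, had 15.1, 21.7, 52.5 and 18.2 FPKM. TBRG4, the host of SNORA5A, had 101, 53.3, 99.8 and 93.9 FPKM, while SNORA5A was above 0 in control_AGO alone at 93.5. SNORA7B (78.9 FPKM in control_AGO alone) is 98.6% identical to SNORA7A, which has no stand-alone row, and lies in the pseudogene RPL32P3. SNORA74 (282 FPKM, a name with 7 rows) and SNORA76A (256 FPKM) were also confined to control_AGO, and SNORA74B from ATP6V0E1 to miR143_AGO at 14.0 FPKM.

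Further named groups of snoRNAs held no member. None of the 109 rows of the imprinted clusters on chromosomes 14 and 15 (SNORD113 to SNORD116 and neighbours) was above 0 in any group. None of 10 snoRNAs in use as qPCR reference RNAs was a member, since 3 had a stand-alone row at 0, 6 were not named in the tables and SNORD48 was joined with C6orf48, in a row of 222, 321, 242 and 202 FPKM (control_IgG, control_AGO, miR143_IgG, miR143_AGO). SCARNA16 and SNORA81, which overlap the microRNA genes MIR6516 and MIR1248, were at 0 in all groups. No member overlapped an annotated microRNA on its strand. The longest of the imprinted cluster genes with a length in the annotation has 102 bases, and SCARNA16 and SNORA81 have 187 and 178, so all of them lie where few or no rows were listed.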

How the data were processed

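AGO2 and IgG precipitates of 12 samples (4 groups of 3, grouped by the titles in the labels) were sequenced after ribosomal RNA removal. The authors deposited 4 tables, each with 1 average FPKM per gene row for a group, made with TopHat and Cufflinks (versions and annotation not given in the sources used here), on build hg38 by the submitters' processing notes. Cufflinks joined overlapping genes into rows with several names. Replicate values were not used here, no spread, test or p-value is given, and the depth is unknown.

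Members were rows whose names all began with SNORA, SNORD or SCARNA and a digit. Ratios were log2 of (FPKM + 1) over (FPKM + 1) for rows of at least 1 FPKM in either group, with the 10-fold threshold of the study, in Python 3.11.15 with pandas 2.3.3. The call counts were checked on simulated data. Names were matched to GENCODE 29 for lengths, hosts and sequences (21 of 23 members matched), and near copies were aligned globally with Biopython 1.88.

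Members and lists were chosen with earlier results of these data known. Genes named were the 5 highest members per group, the 5 highest and 5 lowest ratios per comparison among members of at least 1 FPKM in both groups, and listed members above 0. The remaining members and the hosts were picked with their values in view. Alternatives were pseudocounts of 0.1 and 0.01, other filters, 3 scalings, summing of rows with the same name and a 2-fold threshold.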

Additional observations from a re-analysis of the deposited data

Results flagged for a closer look

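SNORD17 was lower with AGO2 than with IgG in control cells (log2 ratio of -3.85) and higher in miR-143 cells (0.42), a difference of 4.27 between the cell populations. It was picked out because the ratios had opposite directions. The difference was not tested, as each group has 1 average value. SNORD17 kept the opposite directions under each of the 3 scalings (control cells -3.20, -1.05 and -2.61, miR-143 cells 0.58, 3.34 and 1.32), and SCARNA13 joined it under 2 of them (control cells -0.43 and -1.93, miR-143 cells 2.75 and 0.72). Under the rescaling without mitochondrial ribosomal RNA rows and MIR143, SCARNA7 (control cells -2.02, miR-143 cells 1.19) and SNORD3A (0.17 and -1.34) also had opposite directions, so that 4 of the 7 members above 0 in every group did.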

How the results depend on the processing

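No paired analysis was possible because the tables hold 1 average per group, and for the same reason leaving out replicates was not run. Counts of members past 10-fold stayed within 1.5 times of the reported ones, with 3 exceptions. The count for AGO over IgG in control cells was 6 in place of 10 after rescaling without the mitochondrial ribosomal RNA rows and MIR143 (5 higher and 1 lower). At 2-fold the counts for miR-143 over control were 10 in place of 5 in AGO and 13 in place of 8 in IgG precipitates. Within 1.5 times, the directions still shifted. In miR-143 cells that rescaling gave 9 in place of 12, with 44.4% instead of 16.7% of them higher. With pseudocounts of 0.1 and 0.01 and with both rescalings, the AGO count was 7, with 42.9% of them higher instead of 20%. The share higher moved from 50% to 38.5% at 2-fold for AGO over IgG in control cells.

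Class medians of the log2 ratio rest on few rows. When rows had to reach 1 FPKM in both groups, the SNORA median of AGO over IgG in control cells went from 7.29 to -3.31 (SNORA73B alone), that of miR-143 over control in AGO precipitates from -3.37 to 0.58, and the SNORD median of miR-143 over control in IgG precipitates from 0.82 to -2.26, since members at 0 in a group were then left out.

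For the class shares, groups are in the order control_IgG, control_AGO, miR143_IgG, miR143_AGO. With the 9 abundant rows and MIR143 left out of the total, an alternative chosen after seeing the data, SNORD had 0.157%, 0.0365%, 0.131% and 0.0193%, SNORA 0.0851%, 0.904%, 2.03% and 0.496%, and SCARNA 0.347%, 0.0272%, 0.307% and 0.0491%. Without the highest member of the class, SNORD had 0.00913%, 0.0105%, 0.00819% and 0.00396%, SNORA 0%, 0.205%, 0.141% and 0.0378%, and SCARNA 0.0255%, 0.00749%, 0.0142% and 0.0146%. The SNORD share in control cells and the SCARNA share in miR-143 cells were then no longer higher with IgG, where the SNORD row left out differed between the groups (SNORD17 in control_IgG, SNORD3A in control_AGO).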
